A study of Mus musculus with 12 samples.

Results

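Sarcomeric myosin heavy chains are the motor proteins of the thick filament, the filament that pulls on actin when a striated muscle contracts. The 8 genes described here are Myh1, Myh2, Myh3, Myh4, Myh6, Myh7, Myh7b and Myh8. They were chosen by gene symbol, and each was matched to 1 of the 34866 Ensembl gene IDs that the table of each muscle holds, so that all 8 members were present in both tables. RNA was sequenced from soleus and from gastrocnemius of 4-week-old male C57BL/6 mice in 12 libraries, 3 in each of 4 groups. The groups were soleus KO, soleus Ctrl, gastrocnemius KO and gastrocnemius Ctrl. KO mice had the genotype Phf2 flox/flox;Acta1 Cre+, and Ctrl mice Phf2 flox/flox;Acta1 Cre-, so that floxed Phf2 alleles were shared by all 4 groups and the Cre transgene was the labelled difference. Acta1 is the skeletal alpha-actin gene, and Cre under its promoter acts in skeletal muscle fibres, not in the other cells of a whole muscle. The study asked what PHF2, a histone lysine demethylase of the Jumonji family, does in skeletal muscle.

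Each adult muscle fibre is typed by the heavy chain it makes. Myh7 encodes the slow type I chain, and Myh2, Myh1 and Myh4 encode the fast IIa, IIx and IIb chains, in order of rising speed of contraction. Soleus is a postural muscle rich in type I and IIa fibres in the mouse, and gastrocnemius is a mostly IIb muscle. Myh3 and Myh8 encode the embryonic and perinatal chains, which are made in developing and regenerating fibres and give way to the adult chains after birth. Myh6 encodes the alpha cardiac chain of the heart, and Myh7b encodes a slow-type chain whose gene hosts a microRNA.

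Levels are given in TPM, a unit scaled for transcript length and to the same sum in each library, so that genes can be compared with each other. Read depth is lost in TPM and is unknown here. Values of a group are the mean ± SD of n = 3 libraries. Fold changes are on the log2(TPM + 1) scale, which understates the change of low genes, and a call means an adjusted p under 0.05 by limma, with Benjamini-Hochberg adjustment over all genes tested. Whether the 3 libraries of a group stem from different mice is not stated, and p-values therefore cover only the spread among these libraries, which may be technical. In RNA from whole muscle, fewer fibres of a type and less RNA per fibre cannot be told apart.

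The labels of the muscles were checked first. Genes of slow fibres (Tnnt1, Tnni1, Tnnc1, Myl2, Myl3 and Atp2a2) summed to between 16471 and 33552 TPM over the soleus libraries, against 404 to 869 TPM over the gastrocnemius libraries. Phf2, the targeted gene, lay between 6.79 and 9.06 TPM in soleus KO, against 10.002 to 14.98 TPM in soleus Ctrl, and between 6.74 and 7.61 TPM in gastrocnemius KO, against 8.24 to 11.4 TPM in gastrocnemius Ctrl. A two-sided exact permutation test gave p = 0.1 in both muscles, the smallest value that 3 against 3 can reach. Phf2 was not called in either muscle. Over alternative settings its adjusted p by limma ran between 0.0908 and 0.761 in soleus and between 0.0243 and 0.154 in gastrocnemius. The KO and Ctrl ranges likewise did not overlap for 16.8% of all genes in soleus and 37.7% in gastrocnemius. Which exons are floxed is not stated, so total Phf2 RNA is an incomplete check. Processed pseudogenes above 0 TPM numbered 1539 to 1781 per library in gastrocnemius KO, against 1018 to 1160 in gastrocnemius Ctrl, and their part in the gastrocnemius results was not tested. Soleus KO 3 stood apart from the other soleus libraries, with 39.0% of its TPM from mitochondrially encoded genes.

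In the GENCODE M21 annotation of GRCm38, 5 of the genes form a cluster on the plus strand of chromosome 11, in the order Myh3 (67078300 to 67102291), Myh2 (67171027 to 67197517), Myh1 (67200052 to 67224575), Myh4 (67238029 to 67260446) and Myh8 (67277124 to 67308634). Myh6 (54941921 to 54966927) and Myh7 (54970684 to 54994626) are neighbours on the minus strand of chromosome 14. Myh7b stands alone on the plus strand of chromosome 2 (155611212 to 155634307). The fast and perinatal chains lie side by side but differ widely in level, so the 250 bases before the RefSeq start of Myh2, Myh1, Myh4 and Myh8 are shown (GRCm38.p6, plus strand). Capitals mark a run of 14 bases that all 4 promoters share, TTCTAATTATATCC, and, in Myh1, Myh4 and Myh8, a match to the consensus of the MEF2 factors, TTATTTATAG.

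Myh2, chr11:67170777-67171026: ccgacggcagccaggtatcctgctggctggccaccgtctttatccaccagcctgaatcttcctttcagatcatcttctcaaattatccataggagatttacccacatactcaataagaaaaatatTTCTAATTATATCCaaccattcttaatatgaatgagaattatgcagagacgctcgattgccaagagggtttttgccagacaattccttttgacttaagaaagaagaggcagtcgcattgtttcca
Myh1, chr11:67199852-67200101: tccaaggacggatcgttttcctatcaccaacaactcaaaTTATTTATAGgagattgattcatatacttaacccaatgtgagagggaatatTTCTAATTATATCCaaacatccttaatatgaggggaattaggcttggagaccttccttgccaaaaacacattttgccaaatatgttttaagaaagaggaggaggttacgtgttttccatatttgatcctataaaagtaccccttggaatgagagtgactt
Myh4, chr11:67237562-67237811: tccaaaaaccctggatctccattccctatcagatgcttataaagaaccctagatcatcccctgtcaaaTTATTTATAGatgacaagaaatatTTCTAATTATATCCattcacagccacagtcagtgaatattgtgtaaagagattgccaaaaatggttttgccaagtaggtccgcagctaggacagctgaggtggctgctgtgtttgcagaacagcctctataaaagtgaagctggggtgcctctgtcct
Myh8, chr11:67276874-67277123: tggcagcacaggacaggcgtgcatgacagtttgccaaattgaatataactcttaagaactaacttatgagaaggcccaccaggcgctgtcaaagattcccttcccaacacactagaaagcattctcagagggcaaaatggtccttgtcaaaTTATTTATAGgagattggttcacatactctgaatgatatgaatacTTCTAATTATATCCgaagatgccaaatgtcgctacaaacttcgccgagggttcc

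The shared run was found by comparing these 4 promoters with each other, so its presence in them is not a finding. Among 32851 RefSeq promoter windows of 250 bases before to 50 after a start, searched on both strands, those 4 alone held the run, which is 0.01218% of windows. A MEF2 consensus match was held by 3.187% of windows and by 3 of the 8 members. A TATAAA match, at any position, was in 13.62% of windows and in 6 members. The E-box CANNTG was in 72.31% and in 6 members, and the MCAT core CATTCC in 14.66% and in 4 members. At least 1 TATAAA match overlaps the MEF2 match in Myh1, Myh4 and Myh8, and Myh8 has no other. In Myh2 and Myh6 the only TATAAA match lies after the start. A TATAAA match ends 27 bases before the start in Myh1, 24 in Myh3 and 26 in Myh4. The run ends 112 bases before the start in Myh2, 147 in Myh1, 145 in Myh4 and 41 in Myh8. The RefSeq start of Myh4 lies before the GENCODE start given above, and that of Myh1 lies after it. The end of the Myh1 promoter shown, with the TATAAA match nearest its start, therefore lies inside the GENCODE gene.

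Of the 8 genes, 3 host microRNAs that are known for repressing regulators of fibre type in the mouse, and these are shown because the host levels below bear on them. Mature microRNAs were not measured by these libraries. Capitals mark the seed, bases 2 to 8, and the sequences are the RefSeq ones on GRCm38.p6.

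mmu-miR-499-5p, intron 19 of 41 of Myh7b: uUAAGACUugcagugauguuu
mmu-miR-208b-3p, intron 31 of 40 of Myh7: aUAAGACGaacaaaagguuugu
mmu-miR-208a-3p, intron 29 of 38 of Myh6: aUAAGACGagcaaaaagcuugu

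The microRNAs in Myh7 and Myh6 share the seed UAAGACG, and that in Myh7b has UAAGACU.

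Members resemble each other closely enough for reads to be shared. Coding sequences were 91.52% identical between Myh6 and Myh7, 90.95% between Myh1 and Myh2 and 90.08% between Myh1 and Myh4, against at most 71.62% between Myh7b and any other member. Of the stretches of 100 bases in each annotated transcript, 11.42% for Myh6, 11.38% for Myh7, 9.693% for Myh1, 9.275% for Myh2, 5.174% for Myh8 and 3.853% for Myh4 also occurred in another member, and none did for Myh3 and Myh7b. Shorter stretches of 50 bases were shared more often, at 27.0% for Myh2, 26.7% for Myh1 and 22.6% for Myh6 and for Myh7. They were shared at 19.9% for Myh8, 18.6% for Myh4 and 3.69% for Myh3, and not at all for Myh7b. How the authors assigned such reads is not given in the sources used here, so low members beside an abundant relative are uncertain. In addition, 5 members overlap an annotated gene on the opposite strand, among them Myh1 with Myhas, Myh7 with Mhrt and Myh7b with Trpc4ap. The kit is directional per the labels, but whether counting used the strand is not given in the sources used here.

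The heavy chains made up 0.748 ± 0.245% of all TPM in soleus KO, 0.921 ± 0.102% in soleus Ctrl, 1.28 ± 0.0445% in gastrocnemius KO and 1.14 ± 0.0451% in gastrocnemius Ctrl. Soleus was a mixture of 3 main chains in both genotypes, and gastrocnemius was nearly all Myh4. The share of Myh7 in the summed TPM of the 8 genes was 49.1 ± 11.2% in soleus KO and 53.1 ± 4.01% in soleus Ctrl, against 0.618 ± 0.410% in gastrocnemius KO and 0.526 ± 0.157% in gastrocnemius Ctrl. The share of Myh4 was 1.75 ± 1.006% in soleus KO and 0.539 ± 0.202% in soleus Ctrl, against 91.7 ± 2.03% in gastrocnemius KO and 90.0 ± 1.84% in gastrocnemius Ctrl. Myh2 and Myh1 were minor chains in gastrocnemius, with 3.07 ± 0.656% and 4.47 ± 0.972% in KO and 3.03 ± 0.483% and 6.43 ± 1.27% in Ctrl. Within each genotype the ranges of soleus and gastrocnemius did not overlap for the shares of these 4 chains (two-sided exact permutation p = 0.1 each, the smallest possible).

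**Figure D1:**
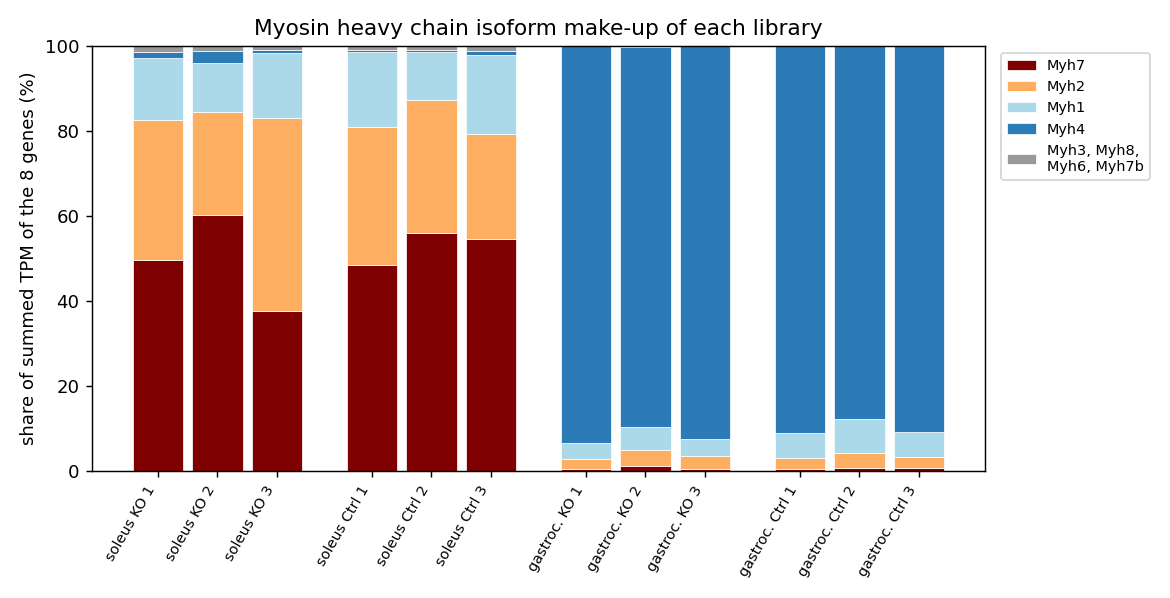
Stacked bars give the share of each chain in the summed TPM of the 8 genes (vertical axis, percent) for each of the 12 libraries, and Myh3, Myh8, Myh6 and Myh7b are drawn together in grey. Myh4 fills 87.9% or more of every gastrocnemius bar, while Myh7, Myh2 and Myh1 fill the soleus bars, and Myh2 exceeds Myh7 in soleus KO 3 alone among the soleus libraries.

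The difference between muscles was tested first, as it sets the scale for any change with genotype. In KO mice 6 members were higher in soleus, Myh4 was lower and Myh8 was not called, while 35.9% of all 12091 genes tested were called, with 26.4% higher and 9.56% lower. In Ctrl mice 7 members were higher in soleus and Myh4 was lower, with 40.8% of all genes called, 30.4% higher and 10.4% lower. The median log2 difference of all genes was 0.13 in KO and 0.19 in Ctrl, a shift that median-ratio scaling removed. That scaling called 2039 genes higher and 2048 lower in KO, against 3189 higher and 1156 lower as deposited, and 2278 higher and 2295 lower in Ctrl, against 3673 higher and 1263 lower as deposited. Apart from Myh1 in both genotypes and Myh8 in KO, members differed between the muscles by far more than this shift.

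Myh7, the slow chain, had 4055, 5717 and 1795 TPM in soleus KO 1 to 3, 4503, 4568 and 5573 TPM in soleus Ctrl 1 to 3, 45.6, 139.7 and 52.3 TPM in gastrocnemius KO 1 to 3 and 40.8, 67.3 and 70.4 TPM in gastrocnemius Ctrl 1 to 3. It was high in every soleus library and low in every gastrocnemius library, and soleus KO 3 was the lowest of the soleus libraries. The log2 difference of soleus over gastrocnemius was 5.62 in KO (SE 0.452, adjusted p = 3.966e-06 by limma) and 6.37 in Ctrl (SE 0.452, adjusted p = 1.436e-06 by limma). Myh4, the IIb chain, ran the other way, at -6.69 in KO (SE 0.510, adjusted p = 2.558e-06 by limma) and -7.72 in Ctrl (SE 0.510, adjusted p = 8.476e-07 by limma). Myh2, the IIa chain, was higher in soleus by 2.61 in KO and 2.96 in Ctrl on the log2 scale, and its lowest soleus library, at 2152 TPM, stood well above its highest gastrocnemius library, at 474 TPM. Myh1, the IIx chain, had the smallest called difference, at 0.81 in KO (adjusted p = 0.0382 by limma) and 0.98 in Ctrl (adjusted p = 0.0139 by limma). Over the alternatives its adjusted p ran between 0.00285 and 0.129 in KO and between 0.00118 and 0.0777 in Ctrl.

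Members low in adult muscle were also higher in soleus. Myh7b differed by a log2 value of 4.46 in KO and 4.46 in Ctrl, and Myh6 by 3.27 in KO and 3.67 in Ctrl. Myh3, the embryonic chain, differed by 1.32 in KO (adjusted p = 0.00737 by limma) and 2.95 in Ctrl (adjusted p = 3.104e-05 by limma). Myh8, the perinatal chain, was higher in soleus by 2.60 in Ctrl (SE 0.387, adjusted p = 0.000319 by limma). In KO its difference was -0.37 (95% interval -1.21 to 0.48, adjusted p = 0.498 by limma).

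**Figure D2:**
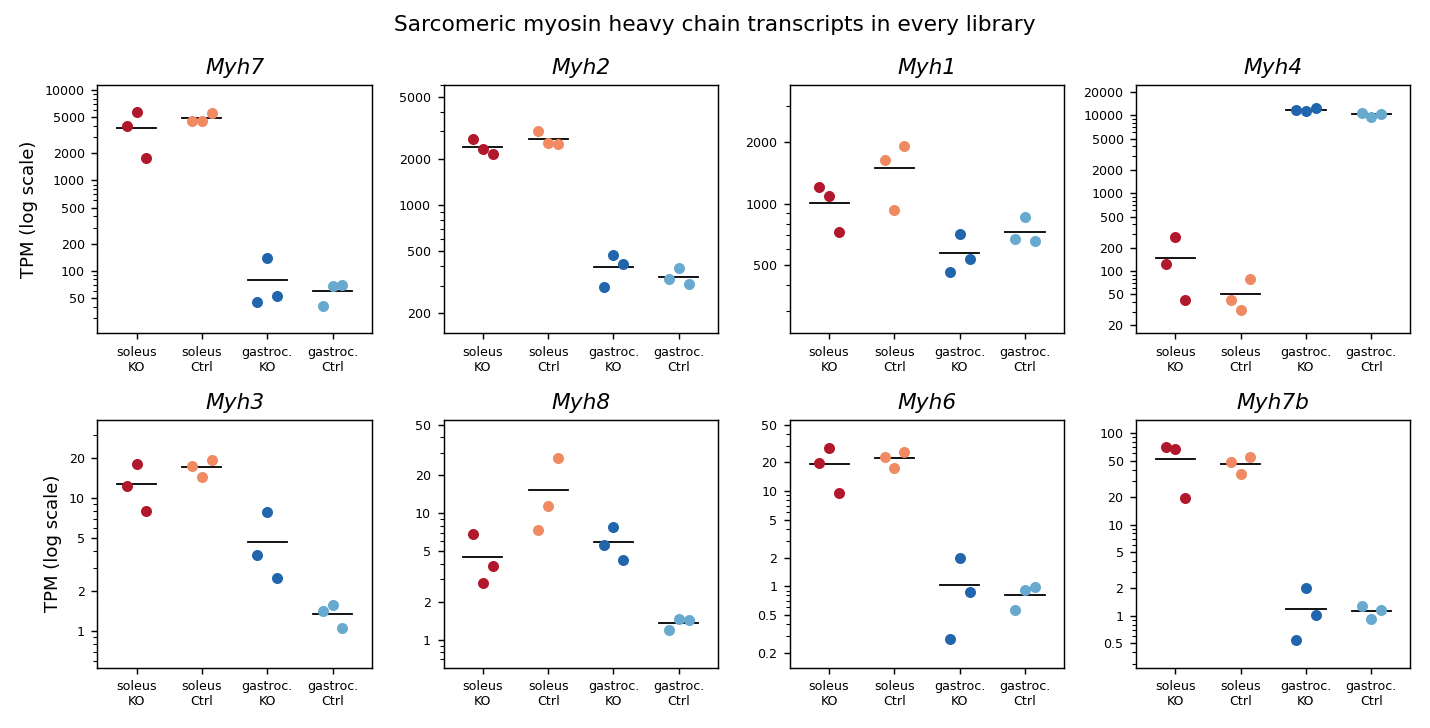
Each panel shows 1 gene, with TPM on a log scale (vertical axis) for the 3 libraries of each group (points) and the group mean (line). In Ctrl the muscles separate for every gene, and in KO for every gene but Myh8. For Myh8, gastrocnemius KO, at 4.30 to 7.85 TPM, stands above gastrocnemius Ctrl, at 1.20 to 1.45 TPM. The KO margin is narrow for Myh1, with 727 TPM lowest in soleus and 714 TPM highest in gastrocnemius. It is narrow for Myh3 too, at 7.97 and 7.87 TPM.

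The order of levels was Myh7, Myh2, Myh1, Myh4, Myh7b, Myh6, Myh3 and Myh8 by mean TPM in both soleus KO and soleus Ctrl. In soleus KO the ranges of Myh7 and Myh2 overlapped, as did those of Myh4 and Myh7b, of Myh7b and Myh6, and of Myh6 and Myh3. In soleus Ctrl the overlapping neighbours were Myh4 and Myh7b, Myh6 and Myh3, and Myh3 and Myh8. Both gastrocnemius groups had the order Myh4, Myh1, Myh2, Myh7, Myh8, Myh3, Myh7b and Myh6. In gastrocnemius KO the ranges of Myh1 and Myh2 overlapped, as did those of Myh8 and Myh3 and of Myh7b and Myh6. In gastrocnemius Ctrl the last 4 genes overlapped with their neighbours and the first 4 did not.

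KO soleus was compared with Ctrl soleus to ask whether the heavy chains of a slow muscle change when Phf2 is deleted in fibres. None of the 8 members was called, and Myh8 alone had an unadjusted p under 0.05. Of all 12148 genes tested with limma, 0.0741% were called, with 0.0165% higher and 0.0576% lower, and 1102 had an unadjusted p under 0.05. The median log2 fold change was -0.38 over the 8 members and -0.02 over all genes. In TPM, the KO and Ctrl ranges did not overlap for 1 member, Myh8, while this held for 16.8% of all genes, with KO the higher in 8.9% and the lower in 7.94%.

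Of the 4 adult chains, the IIb chain had the largest fold difference between the soleus groups, though it was not called. Myh4 had 122, 272 and 43.0 TPM in soleus KO 1 to 3, against 42.3, 32.0 and 78.5 TPM in soleus Ctrl 1 to 3. KO 1 and KO 2 lay above every Ctrl library and KO 3 lay among them. The log2 fold change was 1.24 (95% interval -0.23 to 2.70, adjusted p = 0.617 by limma), and the interval includes 0. Without soleus KO 2 it was 0.61, and without soleus KO 3 it was 1.92, with neither called.

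As a share of the heavy chains, Myh4 made up 1.49%, 2.87% and 0.904% in soleus KO 1 to 3, against 0.456%, 0.393% and 0.770% in soleus Ctrl 1 to 3. All 3 KO shares exceeded all 3 Ctrl shares. The two-sided exact permutation test gave p = 0.1, the smallest possible. Shares of the other 7 members overlapped between the soleus groups. A share within the family has no counterpart over all genes. In TPM the soleus ranges did not overlap for 16.8% of all genes, so 1 of 8 members standing apart is not unusual. Leaving out each library in turn gave differences of 0.660 to 1.64 percentage points, the lowest without KO 2. The summed TPM of the 8 members was 8190, 9504 and 4757 in soleus KO 1 to 3, against 9281, 8149 and 10195 in soleus Ctrl 1 to 3, and KO 3 had the lowest sum.

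The 6 genes of fast fibres were not called in soleus, with a list median of -0.19 against -0.02 for all genes, and they did not share 1 order of libraries. Tnnc2, Tnnt3, Tnni2 and Atp2a1 were highest in KO 2, Ctrl 1 and Ctrl 3, while Actn3 and Pvalb were highest in KO 1, KO 2 and Ctrl 3, as Myh4 was. Actn3, Pvalb and Mybpc2 are shown further because they were the 3 genes most like Myh4 over all 12 libraries, so their likeness to it is no separate result. Actn3, alpha-actinin 3 of fast fibres, had 405, 385 and 188 TPM in soleus KO 1 to 3, against 163, 199 and 358 TPM in soleus Ctrl 1 to 3. Mybpc2, the fast myosin binding protein C, had 109.9, 131 and 57.3 TPM in soleus KO 1 to 3, against 76.5, 68.9 and 113.0 TPM in soleus Ctrl 1 to 3. For Actn3 and Mybpc2 alike KO 1, KO 2 and Ctrl 3 were the highest libraries. Neither was called, with log2 fold changes of 0.45 for Actn3 (adjusted p = 0.740 by limma) and 0.16 for Mybpc2 (adjusted p = 0.887 by limma). Myh4 per Mybpc2 was 1.11, 2.07 and 0.751 in soleus KO 1 to 3, against 0.553, 0.464 and 0.694 in soleus Ctrl 1 to 3. On this ratio, which was chosen after the values were seen, the groups did not overlap. Myh4 per Actn3 was 0.302, 0.706 and 0.229 in soleus KO 1 to 3. In soleus Ctrl 1 to 3 that ratio was 0.260, 0.161 and 0.219, and the groups overlapped.

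**Figure D3:**
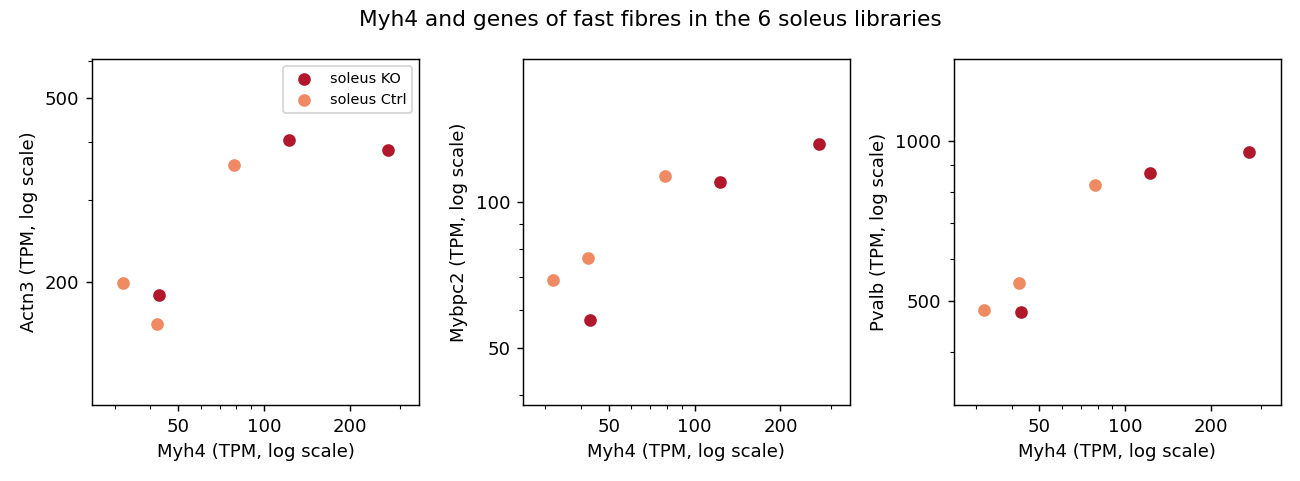
Each point is 1 of the 6 soleus libraries, with Myh4 (horizontal axis) against Actn3, Mybpc2 or Pvalb (vertical axes), the 3 genes most like it over all 12 libraries, in TPM on log scales. The libraries with the most Myh4, soleus KO 1 and KO 2 at 122 and 272 TPM and soleus Ctrl 3 at 78.5 TPM, also have the most of these 3 genes, which does not hold for Tnnc2, Tnnt3, Tnni2 and Atp2a1, not plotted.

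The slow, IIa and IIx chains gave no called difference in soleus. Myh7 averaged 3856 ± 1969 TPM in KO and 4881 ± 599.9 TPM in Ctrl, and its log2 fold change of -0.49 (95% interval -1.40 to 0.42, adjusted p = 0.723 by limma) was -0.01 without KO 3. Myh2 had 2699, 2304 and 2152 TPM in soleus KO 1 to 3, against 3007, 2537 and 2505 TPM in soleus Ctrl 1 to 3, with overlap between the groups. Its log2 fold change was -0.17 (95% interval -0.53 to 0.19, adjusted p = 0.750 by limma). Myh1 had 1204, 1095 and 727 TPM in soleus KO 1 to 3, against 1633, 932 and 1911 TPM in soleus Ctrl 1 to 3. Ctrl 2 lay below 2 of the KO libraries, and the log2 fold change was -0.53 (95% interval -1.24 to 0.18, adjusted p = 0.637 by limma).

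Soleus KO 3 differed from the other libraries in make-up as well as in amount. Myh7 made up 49.5%, 60.2% and 37.7% of the heavy chains in soleus KO 1 to 3, against 48.5%, 56.1% and 54.7% in soleus Ctrl 1 to 3. Myh2 made up 33.0%, 24.2% and 45.2% in soleus KO 1 to 3, against 32.4%, 31.1% and 24.6% in soleus Ctrl 1 to 3. KO 3 had the least Myh7 and the most Myh2. The difference in the Myh7 share, -3.95 percentage points over all libraries, was 1.76 without KO 3, and that in the Myh2 share, 4.77 percentage points, was -0.77 without it.

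In gastrocnemius, the developmental chains rose in KO. Of the 7 members tested, Myh8 and Myh3 were higher in KO, none was lower and 5 were not called, while 14.3% of all 11911 genes were called, with 9.32% higher and 4.99% lower. Myh6, with a mean under 1 TPM, was not tested. The ranges did not overlap for 3 members, Myh8, Myh3 and Myh4, all higher in KO, against 37.7% of all genes, with KO the higher in 22.2% and the lower in 15.5%. The median log2 fold change was 0.20 over the 7 members and 0.03 over all genes. The 1110 genes called higher and 594 called lower became 871 and 871 with median-ratio scaling, so shares of calls in each direction depend on scaling.

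Myh8, the perinatal chain, had 5.62, 7.85 and 4.30 TPM in gastrocnemius KO 1 to 3, against 1.20, 1.45 and 1.43 TPM in gastrocnemius Ctrl 1 to 3. Every KO library lay above every Ctrl library, and KO 2 was the highest. Myh8 rose by 1.52 on the log2 scale (SE 0.182, adjusted p = 0.00610 by limma), and the adjusted p ran between 0.00445 and 0.05 over the alternatives. Its share of the heavy chains was 0.0464 ± 0.0144% in KO and 0.0120 ± 0.00164% in Ctrl, so the rise was a small part of the total. Myh3, the embryonic chain, had 3.76, 7.87 and 2.52 TPM in gastrocnemius KO 1 to 3, against 1.43, 1.57 and 1.06 TPM in gastrocnemius Ctrl 1 to 3. The groups did not overlap and KO 2 was again the highest. Myh3 rose by 1.18 on the log2 scale (SE 0.313, adjusted p = 0.0485 by limma), and the call was lost under 13 of the 18 alternatives, with adjusted p between 0.0350 and 0.125. Without KO 2 the log2 fold change of Myh3 was 0.81.

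In soleus the sign for Myh8 was the opposite. It had 6.84, 2.82 and 3.85 TPM in soleus KO 1 to 3, against 7.39, 11.3 and 27.5 TPM in soleus Ctrl 1 to 3. All KO values were under all Ctrl values, the closest pair being KO 1 and Ctrl 1. On the log2 scale the difference was -1.45 (SE 0.450, unadjusted p = 0.0134, adjusted p = 0.387 by limma), and without Ctrl 3 it was -0.95. The KO effect in soleus minus that in gastrocnemius was -2.97 (SE 0.547, unadjusted p = 0.000183, adjusted p = 0.0632 by limma) in the fit of all 12 libraries. Over the alternatives the adjusted p of this difference ran between 0.0331 and 0.181. For Myh3 the soleus KO effect was -0.45 (adjusted p = 0.637 by limma), and the difference between muscles was -1.63 (SE 0.451, adjusted p = 0.115 by limma). None of the 8 members was called for the difference between muscles, Myh8 and Myh3 had an unadjusted p under 0.05, and 0.273% of all genes were called, 0.157% higher and 0.116% lower, with 2497 at an unadjusted p under 0.05.

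**Figure D4:**
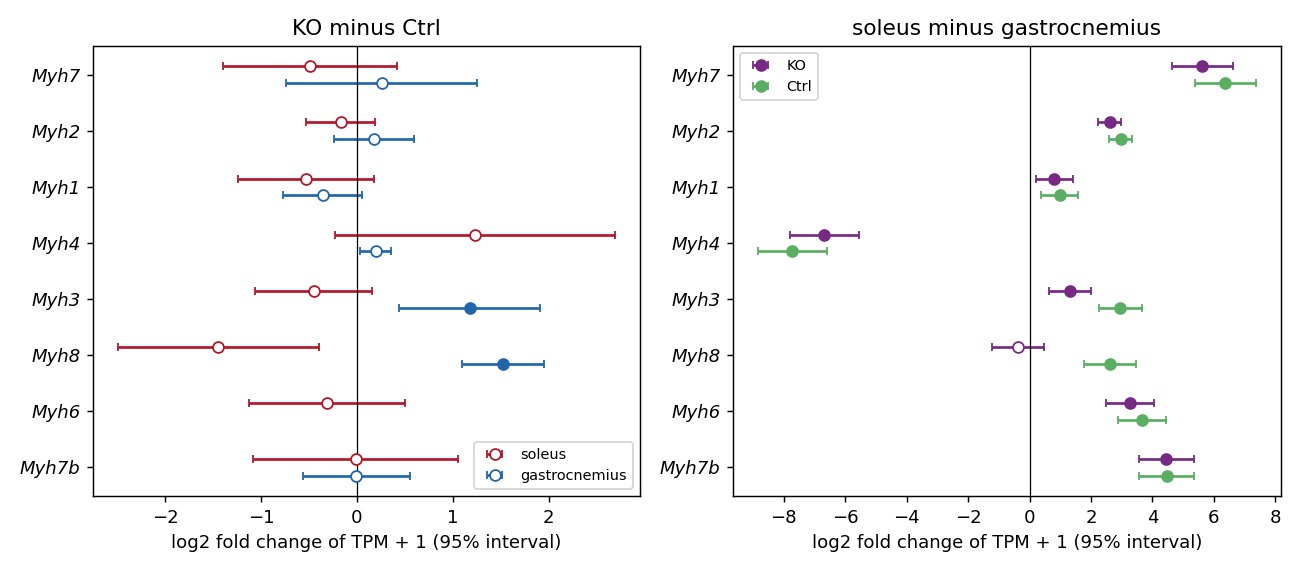
Points are limma log2 fold changes of TPM + 1 with 95% intervals (bars), for KO minus Ctrl in soleus and gastrocnemius on the left and for soleus minus gastrocnemius in KO and Ctrl on the right, and filled points are called. Of the KO effects, those of Myh8 at 1.52 and Myh3 at 1.18 in gastrocnemius are filled, and of the muscle differences 15 of 16 are, with Myh8 in KO at -0.37 the exception.

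None of the adult chains was called between the genotypes in gastrocnemius. Myh4 had 11539.6, 11453 and 12236 TPM in gastrocnemius KO 1 to 3, against 10774, 9589.85 and 10366 TPM in gastrocnemius Ctrl 1 to 3. All KO libraries lay above all Ctrl libraries, with a log2 fold change of 0.20 (95% interval 0.04 to 0.36, adjusted p = 0.0976 by limma) that was not called. Under quantile normalization it was called at 0.38 (adjusted p = 0.00919 by limma), while rescaling over nuclear protein-coding genes gave 0.12 (adjusted p = 0.261 by limma). Over the alternatives the adjusted p ran between 0.00919 and 0.848. Mitochondrially encoded genes, which share the same fixed sum of TPM, made up 19.7 ± 1.39% in gastrocnemius KO and 23.3 ± 1.11% in gastrocnemius Ctrl, and their part in the Myh4 difference was not tested. Without them the log2 fold change was 0.13 (adjusted p = 0.222 by limma). Of the 6 genes of fast fibres, 3 rose in gastrocnemius KO and none fell, where 9.32% of all genes were higher and 4.99% lower. They were the fast troponins Tnnc2 at 0.46, Tnnt3 at 0.31 and Tnni2 at 0.28 on the log2 scale (adjusted p = 0.0222, 0.0281 and 0.0352 by limma). These calls were not recomputed under other scalings. The other 3 were not called and differed little between the groups. Actn3 had 4203 ± 470 TPM in KO and 4330 ± 118 TPM in Ctrl. Atp2a1 had 11082.5 ± 975 TPM in KO and 11472 ± 842 TPM in Ctrl. Pvalb had 17324 ± 1005 TPM in KO and 17224 ± 1560 TPM in Ctrl. The share of Myh4 among the heavy chains overlapped between the groups, at 93.4%, 89.5% and 92.4% in KO 1 to 3 against 91.2%, 87.9% and 90.9% in Ctrl 1 to 3 (two-sided exact permutation p = 0.4).

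The IIx chain had the lower share of the heavy chains in gastrocnemius KO. Myh1 made up 3.77%, 5.58% and 4.06% in KO 1 to 3, against 5.66%, 7.90% and 5.73% in Ctrl 1 to 3. Every KO share lay below every Ctrl share, although KO 2 and Ctrl 1 nearly met (two-sided exact permutation p = 0.1, the smallest possible). Shares of Myh3 and Myh8 did not overlap either, with KO the higher. In TPM the gastrocnemius ranges did not overlap for 37.7% of all genes, so such a gap is not unusual. In TPM the groups overlapped, with 465, 714 and 537 in KO 1 to 3 and 669, 863 and 654 in Ctrl 1 to 3, and the log2 fold change of -0.36 (95% interval -0.77 to 0.05, adjusted p = 0.202 by limma) was not called. Myh2 had 296, 474 and 413 TPM in KO 1 to 3, against 329.6, 391 and 309 TPM in Ctrl 1 to 3, and its log2 fold change was 0.18 (95% interval -0.24 to 0.59, adjusted p = 0.523 by limma).

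Set against each other, these neighbouring fast chains separated the genotypes more tightly than either did alone. Myh1 per Myh2 was 1.57, 1.505 and 1.30 in gastrocnemius KO 1 to 3, against 2.03, 2.20 and 2.11 in gastrocnemius Ctrl 1 to 3. The group means were 1.46 ± 0.142 in KO and 2.12 ± 0.0874 in Ctrl, and no ranges overlapped. This ratio does not move with library scaling, but it was chosen after the values were seen, and Myh1 and Myh2 share 7.775% of the 100-base stretches of Myh1. In soleus the same ratio was 0.446, 0.475 and 0.338 in KO 1 to 3, against 0.543, 0.367 and 0.763 in Ctrl 1 to 3, with overlap.

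The sign of the slow chain's difference in gastrocnemius rested on 1 library. Myh7 was highest in KO 2, at 139.7 TPM, and its log2 fold change of 0.26 (adjusted p = 0.709 by limma) was -0.24 without that library. Genes of slow fibres summed to 404, 869 and 415 TPM in gastrocnemius KO 1 to 3, against 442, 661 and 659 TPM in gastrocnemius Ctrl 1 to 3, so they were also highest in KO 2. KO 2 was the highest gastrocnemius library for Myh2, Myh3, Myh6, Myh7, Myh7b and Myh8 as well.

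Myh6 and Myh7b were, like Myh7, mainly soleus genes. Myh6 had 19.8, 28.1 and 9.50 TPM in soleus KO 1 to 3, against 23.0, 17.6 and 26.01 TPM in soleus Ctrl 1 to 3, and KO 3 was the lowest library, as for Myh7. As a percentage of Myh7 it was similar in all soleus libraries, on a ratio chosen after the values were seen. The ratio was 0.488%, 0.492% and 0.529% in soleus KO 1 to 3 and 0.511%, 0.385% and 0.467% in soleus Ctrl 1 to 3. It was higher in gastrocnemius, without overlap, at 0.608%, 1.41% and 1.68% in KO 1 to 3. In gastrocnemius Ctrl 1 to 3 it was 1.36%, 1.35% and 1.38%. Of the 100-base stretches of Myh6, 11.42% also occur in other members, and the part of shared reads in the Myh6 values was not tested. The 5 listed heart genes other than Myh6 summed to between 5.24 and 7.83 TPM in soleus KO, 4.602 and 8.93 TPM in soleus Ctrl, 2.17 and 2.90 TPM in gastrocnemius KO and 1.58 and 1.81 TPM in gastrocnemius Ctrl. Tnni3, the cardiac troponin I and the 1 listed heart gene that was tested, was higher in soleus, as Myh6 was, by 0.92 in KO and 1.77 in Ctrl on the log2 scale (adjusted p = 0.00741 and 9.808e-05 by limma). Ryr2 went the other way, with means of 0.283 TPM in soleus and 0.305 in gastrocnemius in KO, and 0.278 and 0.478 TPM in Ctrl. Nppa averaged 0.527 TPM in soleus and 0.358 in gastrocnemius in KO, and 0.469 and 0.156 TPM in Ctrl. Nppb had 1.86, 0.328 and 1.02 TPM in soleus KO 1 to 3, was above 0 in 1 soleus Ctrl library and 1 gastrocnemius KO library, and was at 0 in the other libraries. Myl7 was above 0 in 5 of 6 KO libraries, at 0.148 TPM or less, and at 0 in all Ctrl libraries. The part of heart genes in the Myh6 values was not tested. Myh7b, which shares no such stretch, had 70.3, 66.8 and 19.4 TPM in soleus KO 1 to 3, against 48.4, 36.2 and 54.2 TPM in soleus Ctrl 1 to 3. KO 1 and KO 2 were above every Ctrl library and KO 3 below them, and the log2 fold change was -0.01 (95% interval -1.08 to 1.06) over all libraries and 0.58 without KO 3, not called in either. Per Myh7 it was 1.73%, 1.17% and 1.08% in soleus KO 1 to 3, against 1.07%, 0.792% and 0.973% in soleus Ctrl 1 to 3, which did not overlap, by a narrow margin between KO 3 and Ctrl 1, on a ratio chosen after the values were seen. In gastrocnemius both genes were near 1 TPM, with 0.277 to 1.96 TPM in KO and 0.557 to 0.972 TPM in Ctrl for Myh6, and 0.540 to 2.00 TPM in KO and 0.915 to 1.29 TPM in Ctrl for Myh7b.

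The proteins that work with the heavy chains were described as lists. In soleus KO none of the members of the lists below was called, where 0.0741% of all genes were, and the smallest unadjusted p among light chains and thick filament partners was 0.00460 for Mybph, a binding protein H of the thick filament. Mybph had 29.0, 10.5 and 9.49 TPM in soleus KO 1 to 3, against 4.11, 3.06 and 5.63 TPM in soleus Ctrl 1 to 3 (adjusted p = 0.275 by limma). Its groups did not overlap. In gastrocnemius KO, 1 of 6 tested light chains rose and 1 fell, with a list median of -0.08. Of all genes 9.32% were higher and 4.99% lower. Myl4, the embryonic and atrial essential light chain, rose to 38.8 ± 15.4 TPM in KO, against 12.9 ± 0.415 TPM in Ctrl (log2 fold change 1.43, SE 0.282, adjusted p = 0.0204 by limma). Myl1, the fast essential light chain, fell to 24570 ± 837 TPM in KO, against 29997 ± 763 TPM in Ctrl (log2 fold change -0.29, SE 0.0616, adjusted p = 0.0258 by limma).

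In gastrocnemius KO 9.32% of all genes were higher and 4.99% lower. Of 9 tested thick filament partners there, 1 fell and none rose, with a list median of -0.03. That was Ttn, the giant ruler protein titin, at 132.7 ± 1.67 TPM in KO and 162 ± 4.35 TPM in Ctrl (log2 fold change -0.29, adjusted p = 0.0180 by limma). Among 9 genes of myosin folding and turnover, 2 rose and none fell, with a median of -0.01, against the same shares of all genes. Trim54, a RING-finger protein of the thick filament and microtubules, had a log2 fold change of 0.62 (adjusted p = 0.00358 by limma). Smyd1, a methyltransferase needed for thick filament assembly, had 0.24 (adjusted p = 0.0308 by limma). Fbxo32, the atrophy ubiquitin ligase atrogin-1, had -0.58 and was not called (adjusted p = 0.0508 by limma).

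Of 19 tested regulators of heavy chain genes in gastrocnemius, 1 fell and none rose, with a median of -0.06. A count of 1 of 19 is close to the 4.99% of all genes that were lower. The gene that fell was Mef2a, which encodes a MEF2 factor, at 23.5 ± 1.505 TPM in KO and 29.2 ± 1.38 TPM in Ctrl (log2 fold change -0.30, adjusted p = 0.0398 by limma). Tead1, which binds MCAT elements, and Sox6, a repressor of slow genes, were not called, at -0.27 (adjusted p = 0.0573 by limma) and -0.26 (adjusted p = 0.0707 by limma). Between muscles, 11 of 20 regulators were higher and 4 lower in soleus in KO, and 9 higher and 5 lower in Ctrl. Of all genes 26.4% were higher and 9.56% lower in KO, and 30.4% were higher and 10.4% lower in Ctrl, and these shares depend on scaling as given above. Prox1, a factor of slow fibres, was higher in soleus by 1.68 in KO and 1.33 in Ctrl, and Maf, a large Maf factor tied to IIb fibres, was lower by -2.53 in KO and -2.97 in Ctrl, on the log2 scale.

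Markers that could carry developmental chains were examined beside Myh3 and Myh8. Of 7 genes of developing muscle, 3 rose in gastrocnemius KO and none fell, namely Tnnt2, Myl4 and Ncam1, where 9.32% of all genes were higher and 4.99% lower. The list median was 0.62, against 0.03 for all genes. Tnnt2, the embryonic and cardiac troponin T, was at 18.8 ± 6.69 TPM in KO and 7.70 ± 0.988 TPM in Ctrl (log2 fold change 1.14, adjusted p = 0.0186 by limma). Ncam1, an adhesion molecule of immature and denervated fibres, was at 8.21 ± 2.15 TPM in KO and 4.29 ± 0.783 TPM in Ctrl (log2 fold change 0.78, adjusted p = 0.0314 by limma). Both were highest in KO 2, as Myh3 and Myh8 were. In soleus the same list had a median of 0.68 with none called, so Tnnt2 at 0.63, Myl4 at 0.88 and Ncam1 at 0.47 stood above 0 where Myh8 stood at -1.45. The 4 satellite cell markers summed to between 13.7 and 14.3 TPM in gastrocnemius KO, against 11.4 to 17.0 TPM in gastrocnemius Ctrl. Of these, 0 of 3 tested were called. Most of each sum was Chodl, at 10.1 ± 0.729 TPM in KO and 10.7 ± 2.50 TPM in Ctrl. Pax7 did not overlap, at 1.40 to 2.04 TPM in KO and 0.907 to 1.33 TPM in Ctrl. The groups overlapped for Chodl, Myf5 and Calcr. Of all genes in gastrocnemius, 22.2% lay apart with KO the higher. Adipocyte markers summed to between 364 and 440 TPM in gastrocnemius KO, against 265 to 292 TPM in gastrocnemius Ctrl, with 1 of 3 called (Fabp4). Most of each sum was Fabp4, at 386 ± 25.3 TPM in KO and 275 ± 12.5 TPM in Ctrl. The groups overlapped for Adipoq, at 4.92 to 21.8 TPM in KO and 2.96 to 7.18 TPM in Ctrl. They also overlapped for Plin1, at 1.85 to 11.5 TPM in KO and 1.32 to 3.75 TPM in Ctrl. The part of these markers in these results was not tested.

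The genes most like each member were sought over the 12 libraries by Pearson's r on the log2(TPM + 1) scale, leaving out the 8 members and genes with only a clone or model name. These values mostly follow the split between muscles and are given as a description. Nearest to Myh7 were Tnnt1, the slow troponin T (r = 0.9994), Tnnc1, Tpm3, Myl3 and Vgll2. Nearest to Myh2 were Myom3, an M-band protein (r = 0.9966), Actn2, Hspb7, Pdlim1 and Atp2a2. Nearest to Myh4 were Pvalb, the calcium buffer parvalbumin (r = 0.9945), Mybpc2, Actn3, Actc1 and Clcn1. Myh1 and Myh8 had no such close companions, with Aox1 at 0.9302 for Myh1 and Ncs1 at 0.9279 for Myh8. Myh3 was nearest to Efnb1 (r = 0.9813), Myh6 to Tnnt1 (r = 0.9927) and Myh7b to Cidea (r = 0.995).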

How the data were processed

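The 12 libraries of soleus and gastrocnemius RNA were prepared with a directional kit, per the labels' protocols. The authors deposited TPM, in a table for each muscle. Per the submitters' processing notes the build was mm10. The sources used here name no annotation, and the aligner and quantifier are likewise not given in the sources used here. Gene IDs without their version were matched to GENCODE M21, 34652 of 34866 with success. TPM is scaled within each library, and levels of both tables were therefore set on 1 scale.

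Values were transformed to log2(TPM + 1), and limma 3.58.1 (R 4.3.3) was fitted to genes averaging 1 TPM or more, with an empirical Bayes trend and two-sided tests. KO was set against Ctrl within the 6 libraries of a muscle. Soleus was set against gastrocnemius, and the 2 KO effects against each other, in a fit of all 12 libraries with 4 group means. Shares were computed within the summed TPM of the 8 members and compared by exact permutation, unadjusted. Depth is unknown from TPM, so no counting interval is given.

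The members, lists and tests were chosen with earlier results of these data known. All 8 members are named in each comparison, with up to 4 genes of smallest p per list and 5 most alike genes per member. Genes of the lists on fibre type, light chains and thick filaments overlap in part. The alternatives changed the pseudocount (0.1 and 0.5), the filter (none, or 5 TPM), the scaling (median-ratio, quantile, or without mitochondrially encoded genes) and the fit (robust, without trend, with array weights, with a replicate block, over all libraries, or with each library left out). Rescaling over nuclear protein-coding genes was chosen after seeing the data. Coding sequences were aligned with MAFFT 7.526. The fit was tested on simulated data. Python 3.11.15 and matplotlib 3.10.9 served for tables and figures. Every library was used.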

Additional observations from a re-analysis of the deposited data

Results flagged for a closer look

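For Myh8 the KO effect in soleus minus that in gastrocnemius was -2.97 on the log2 scale. It was marked because every soleus KO library lay below every soleus Ctrl library while every gastrocnemius KO library lay above every gastrocnemius Ctrl library. The difference itself was tested in the fit of all 12 libraries and was not called (SE 0.547, adjusted p = 0.0632 by limma, with 0.0331 to 0.181 over the alternatives). Myh8 shares 5.174% of its 100-base stretches with other members, and the part of such reads was not tested.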

How the results depend on the processing

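The 7 members called between muscles in KO and the 8 called in Ctrl kept their direction under all alternatives run, and Myh1 alone lost its call under some of them, such as without soleus KO 1 (adjusted p = 0.123 by limma) and without soleus Ctrl 3 (adjusted p = 0.0622 by limma). Gene counts varied more. In soleus KO against Ctrl, 9 genes were called, with 0 without a filter (1738 at an unadjusted p under 0.05), 5 with a filter at 5 TPM, 16 without mitochondrially encoded genes, 19 with array weights, 98 in the fit of all libraries and 0 to 11 when a library was left out (0 without KO 3, Ctrl 1 or Ctrl 2 and 1 without KO 1 or Ctrl 3). In gastrocnemius 1704 were called, with 1113 without a filter, 524 in the fit of all libraries and 547 to 1596 when a library was left out (547 without KO 2, 563 without Ctrl 1, 781 without Ctrl 2, 821 without KO 3 and 1099 without KO 1). For soleus against gastrocnemius in KO, 4345 were called, with 6629 without mitochondrially encoded genes and 7016 rescaled over nuclear protein-coding genes. For the difference between muscles 33 were called, with 14 at a pseudocount of 0.1, 21 under quantile normalization, 16 under each rescaling, 292 with array weights and 1 to 308 when a library was left out (308 without soleus KO 2, and 13 or fewer without any other library except soleus KO 3).

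The replicate number as a block gave 0 calls in soleus (727 at an unadjusted p under 0.05), 722 in gastrocnemius and 0 for the difference between muscles (2238 at an unadjusted p under 0.05). Same-numbered libraries did not deviate together (correlations of -0.381 to 0.204), which does not settle whether same-numbered libraries of the 2 muscles came from the same mouse. The labels do not say so, and the fits between muscles treat the libraries as independent. Under the block Myh1 lost its call between muscles in KO (adjusted p = 0.0658 by limma).

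Myh8 in gastrocnemius lost its call in the fit of all libraries alone. Its difference between muscles was called at a pseudocount of 0.5 (-3.29), with a filter at 5 TPM, with array weights, without soleus KO 2 (-2.74) and without soleus Ctrl 1 (-3.36). Myh3 in gastrocnemius kept its call with KO 3 left out and lost it when any other library was.

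Signs turned where no call was made. Myh7b in soleus KO was 0.035 under quantile normalization, 0.0694 without mitochondrially encoded genes, 0.336 with array weights, 0.0852 rescaled over nuclear protein-coding genes and -0.33 to 0.58 when a library was left out. In gastrocnemius it was 0.0368 with array weights and -0.0783 to 0.22 when a library was left out. Its difference between muscles was 0.0595 and 0.0124 at pseudocounts of 0.1 and 0.5, 0.0202 under median-ratio scaling, 0.111 under quantile normalization, 0.118 without mitochondrially encoded genes, 0.309 with array weights, 0.126 over nuclear protein-coding genes and -0.32 to 0.58 when a library was left out. Myh6 in soleus was -0.63 to 0.10 and its difference between muscles -0.73 to 0.00862 when a library was left out. Myh7 in gastrocnemius was -0.24 to 0.56. The difference between muscles for Myh1 was 0.127 under quantile normalization, 0.00549 over nuclear protein-coding genes and -0.48 to 0.0457 when a library was left out. Phf2 between muscles in KO was -0.00364 under quantile normalization. The cause of these turns was not tested. Depth is unknown, so the precision of members near 1 TPM is too.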

Other observations

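Myosin heavy chains outside the 8 members also differed between the muscles. Myh10, the non-muscle IIB chain, was at 59.3 ± 19.6 TPM in soleus KO and 42.8 ± 4.17 TPM in soleus Ctrl, against 8.96 ± 1.09 TPM in gastrocnemius KO and 7.70 ± 0.315 TPM in gastrocnemius Ctrl. Its log2 difference of soleus over gastrocnemius was 2.56 in KO and 2.33 in Ctrl (adjusted p = 1.731e-06 and 3.209e-06 by limma). Myh13, the extraocular chain, was at 5.38 ± 2.75 TPM in soleus KO and 5.74 ± 0.872 TPM in soleus Ctrl, against 0.488 ± 0.384 TPM in gastrocnemius KO and 0.482 ± 0.113 TPM in gastrocnemius Ctrl. Of the smooth and non-muscle chains, 1 of 4 rose in gastrocnemius KO, namely Myh9, the non-muscle IIA chain (log2 fold change 0.35, adjusted p = 0.0341 by limma), where 9.32% of all genes were higher and 4.99% lower.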
